A study of Homo sapiens with 238 samples.

Results

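The mitochondrial genome of human cells holds 37 genes, and all of them were followed here by poly(A) RNA-seq in K562, a human erythroleukemia cell line. They were chosen as every gene on chrM in the GENCODE annotation of hg38 and make up 37 of 62696 genes in the count tables. They comprise 13 mRNAs for subunits of the respiratory chain, 2 rRNAs and 22 tRNAs. The study edited G-quadruplex (G4) sequences, four-stranded DNA structures formed by G-rich runs, in enhancers of the α- and β-globin genes. Its 62 RNA-seq libraries fall into 12 lines, which the titles name, and none of the edits lies in the mitochondrial genome.

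The α series holds 43 libraries. Unedited cells, αWT, have 8 libraries. αMut1 (7 libraries) and αMut2 (4 libraries) are clones in which the G4 of the HS-40 enhancer was mutated on all alleles. αRes1 (8 libraries), αRes2 (8 libraries), αRes3 (4 libraries) and αRes4 (4 libraries) are clones made from αMut1 in which a different G4 sequence was inserted at HS-40. The β series holds 19 libraries, with 4 of unedited βWT, 4 each of the HS2 G4-mutant clones βMut1 and βMut2, 4 of WT-HS3Δ (HS3 enhancer deleted in unedited cells) and 3 of βMut-HS3Δ (HS3 deleted in βMut1). All lines share the K562 background, and each edited line is a single clone, so an effect of the edit and a property of the clone cannot be told apart. Nothing in the labels says that libraries of a line came from separate cultures, so p-values measure the spread between libraries, which may be technical.

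Mitochondrial DNA is transcribed from both strands into long precursor RNAs that are cut at the tRNAs lying between the other genes. Its mRNAs code for core subunits of complexes I, III, IV and V of the respiratory chain, and the 12S and 16S rRNAs build the mitochondrial ribosome that translates them. The other subunits, the mitochondrial polymerase and the ribosomal proteins are encoded in the nucleus, and most mitochondrial mRNAs and the rRNAs carry short poly(A) tails while tRNAs do not.

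Some neighbouring genes share bases, and others have near-identical copies in nuclear DNA, so a read can fit more than 1 gene. The end of MT-ATP8 and the start of MT-ATP6, both subunits of ATP synthase, are shown because they share 46 bases (capitals, hg38 chrM:8507-8592, plus strand), the longest overlap among the 37 genes. MT-ND4L and MT-ND4, both of complex I, share 7 bases (capitals, chrM:10740-10786, plus strand).
MT-ATP8 and MT-ATP6: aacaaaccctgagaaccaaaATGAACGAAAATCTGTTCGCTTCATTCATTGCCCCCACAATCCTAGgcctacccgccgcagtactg
MT-ND4L and MT-ND4: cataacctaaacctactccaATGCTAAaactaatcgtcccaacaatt

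Part of the mitochondrial genome is repeated on chromosome 1, where the annotation lists 7 nuclear copies side by side. MT-ND1 and its copy MTND1P23 are shown because the copy was counted in some libraries and hardly in others, also within a line (below). Capitals mark the 4 bases that differ in a stretch of 120 (MT-ND1 chrM:3907-4026, MTND1P23 chr1:629077-629196, both plus strand).
MT-ND1: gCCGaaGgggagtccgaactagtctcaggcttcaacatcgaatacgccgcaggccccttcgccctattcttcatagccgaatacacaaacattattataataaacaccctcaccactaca
MTND1P23: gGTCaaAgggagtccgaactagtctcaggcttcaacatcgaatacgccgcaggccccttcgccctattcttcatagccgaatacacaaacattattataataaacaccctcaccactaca

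Over the aligned bases MTND1P23 was 98.1% identical to MT-ND1, and the other 6 copies were 97.6% to 98.7% identical to their genes. Of the 51-base windows of MTND1P23, 61.5% also occur in chrM, and of those of MTATP8P1 7.64%. A read from such a window cannot be placed by its own bases alone, though its mate may place the pair. How reads that fit several genes were counted is not stated.

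The tRNA of leucine MT-TL1 (chrM:3230-3304, plus strand) and that of asparagine MT-TN (chrM:5657-5729, minus strand) are shown as the most and the least counted tRNA genes, with 15376 and 19 counts over all libraries.
MT-TL1: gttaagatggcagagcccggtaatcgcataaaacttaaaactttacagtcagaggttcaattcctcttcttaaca
MT-TN: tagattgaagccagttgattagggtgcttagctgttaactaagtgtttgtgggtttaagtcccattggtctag

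The libraries held 4270215 to 48671570 counts. Erythroid markers were present in every library (the transcription factor GATA1 at 191 to 384 CPM, counts scaled to library size), while the B cell marker MS4A1 was at 0 in 59 libraries. EPCAM, an epithelial marker, was present at 27.5 to 145 CPM. Counts of pseudoautosomal genes were present in 16 libraries (all of αRes3 and αRes4, and numbers 5 to 8 of αRes1 and αRes2) and at most 1 in the other 46, which may reflect a different alignment reference that no source states, and its part in the results below was not tested. In the α series, libraries of αWT, αMut1, αRes1 and αRes2 carry replicate numbers in 2 sets, 1 to 4 and 5 to 8. Deviations of αRes1 and αMut1 libraries with the same number were negatively correlated over genes (-0.44 to -0.21), so the sets of these lines ran opposite to each other. The labels of these sets may have been exchanged between αMut1 and αRes1, which was not tested. Libraries were kept as titled, and every value of these 2 lines, and every comparison with αMut1, depends on those labels. Results for these 4 lines are therefore given for each set as well.

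Levels per length followed a similar order in the libraries. On the RPKM scale, which divides by gene length and library size, the median over 62 libraries was 1516 for MT-CO3, 1495 for MT-ND4 and 1492 for MT-CO2. Among the other mRNAs it was 404 for MT-ND5 and 73.6 for MT-ND6, the only mRNA on the light strand. MT-RNR2, the 16S rRNA, stood at 1192 and MT-RNR1, the 12S rRNA, at 328. The most abundant tRNA gene, MT-TL1, stood at 112.

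The share of all counts that fell on the 37 genes was 1.12% ± 0.336 (SD, n = 8) in αWT, where 7 libraries lay between 0.913% and 1.10% and replicate 8 stood at 1.94%. In αRes4 it was 3.55% ± 1.42 (SD, n = 4), with 4.04%, 5.24%, 2.97% and 1.94% in the 4 libraries. All 4 were above the αWT libraries, the lowest by a small margin over αWT replicate 8. The exact permutation test, two-sided, returned p = 0.0040, the lowest value possible here, which did not pass after adjustment over 64 tests of library shares (adjusted p = 0.0746). None of the 16 comparisons of this share passed. Depth differed between these lines, with 16248587 to 20967733 counts in αRes4 libraries and 21310532 to 48671570 in αWT, without overlap. αRes3 libraries held 12007645 to 22183345 counts. The part of depth in the mitochondrial difference of αRes4, by share or by gene, was not tested.

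**Figure D1:**
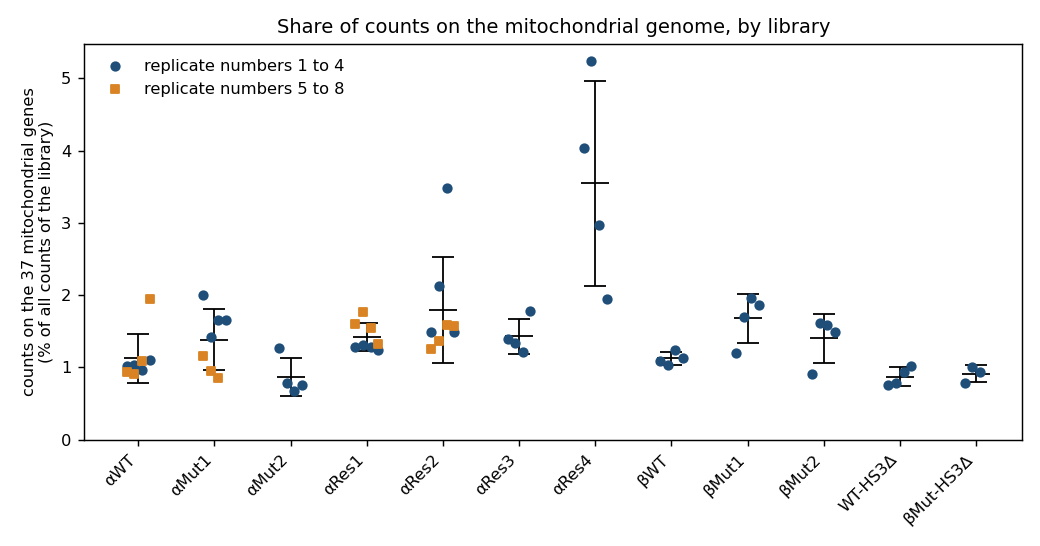
Share of all counts on the 37 mitochondrial genes (%, y axis) in each library, by line (x axis); bars are the mean and SD, circles are replicate numbers 1 to 4 and squares 5 to 8. The 4 αRes4 libraries spread from 1.94% to 5.24%, and αWT replicate 8 and αRes2 replicate 3 stand above the others of their lines.

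In αRes2 the share was 1.79% ± 0.728 (SD, n = 8), and replicate 3, the shallowest library of all, stood at 3.48%. By set αRes2 held 2.14% ± 0.939 in numbers 1 to 4 and 1.44% ± 0.160 in numbers 5 to 8 (SD, n = 4 each). αRes1 held 1.28% ± 0.0283 in numbers 1 to 4 and 1.56% ± 0.184 in numbers 5 to 8 (SD, n = 4 each). αRes3 held 1.43% ± 0.247 (SD, n = 4). The αMut1 libraries split by replicate number, with 1.42% to 2.00% in numbers 1 to 4 and 0.851% to 1.15% in numbers 5 to 7. αMut2 stood at 0.869% ± 0.268 (SD, n = 4). In the β series βWT held 1.12% ± 0.0843 (SD, n = 4), βMut1 1.68% ± 0.341 (SD, n = 4) and βMut2 1.40% ± 0.335 (SD, n = 4). WT-HS3Δ held 0.874% ± 0.127 (SD, n = 4) and βMut-HS3Δ 0.911% ± 0.118 (SD, n = 3). All libraries of these 2 lines (at most 1.02% and 1.01%) lay below those of βWT (at least 1.04%). Exact permutation tests, two-sided, returned p = 0.0286 and p = 0.0571, the lowest values possible here. Neither passed adjustment (adjusted p = 0.108 and 0.159). The first libraries of βMut1 (1.20%) and βMut2 (0.904%) were the lowest of their lines and lay close to βWT or under it.

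Each gene was then compared between lines with edgeR's quasi-likelihood test, and a gene counts as called where its adjusted p was under 0.05 and its log2 fold change was beyond 0.5 either way. αRes4 had the most mRNAs called. All 13 mRNAs were higher than in αWT, with a median log2 fold change of 1.52 (1.09 to 1.94), against 40.5% of all tested genes called in either direction and a median over all genes of 0.01. MT-ND5, the largest mitochondrially encoded subunit of complex I, ranged from 1245 to 4002 CPM in αRes4 and from 494 to 1211 in αWT, and the lines did not overlap. Its log2 fold change was 1.94 ± 0.28 (SE, adjusted p = 1.9e-07).

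The same held for the other complexes. MT-CYB of complex III stood at 2836, 3804, 2081 and 1305 CPM in the 4 αRes4 libraries, against a median of 728 and a highest value of 1318 in αWT, so its lowest αRes4 library lay within the αWT range. MT-CO1, the catalytic subunit of complex IV, rose by a log2 fold change of 1.49 ± 0.20 (SE, adjusted p = 5.0e-08). MT-ATP6, of the proton channel of ATP synthase, rose by 1.52 ± 0.24 (SE, adjusted p = 1.1e-06). MT-RNR1 and MT-RNR2 rose by 1.40 ± 0.23 and 1.47 ± 0.22 (SE). Of 12 tRNA genes with enough counts, 10 were called higher (23.3% of all genes).

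Against its parent clone αMut1, αRes4 also had all 13 mRNAs higher, with a median log2 fold change of 1.30 (32.5% of all genes called). Leaving out any 1 αRes4 library left all 13 called in both comparisons. αRes3 had 0 of 13 called by edgeR or DESeq2 against αWT (39.0% of all genes), with 2 at an unadjusted p below 0.05, and 0 against αMut1 (20.6%), with 0 at that level. Without αWT replicate 8, 4 were called in αRes3 against αWT.

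**Figure D2:**
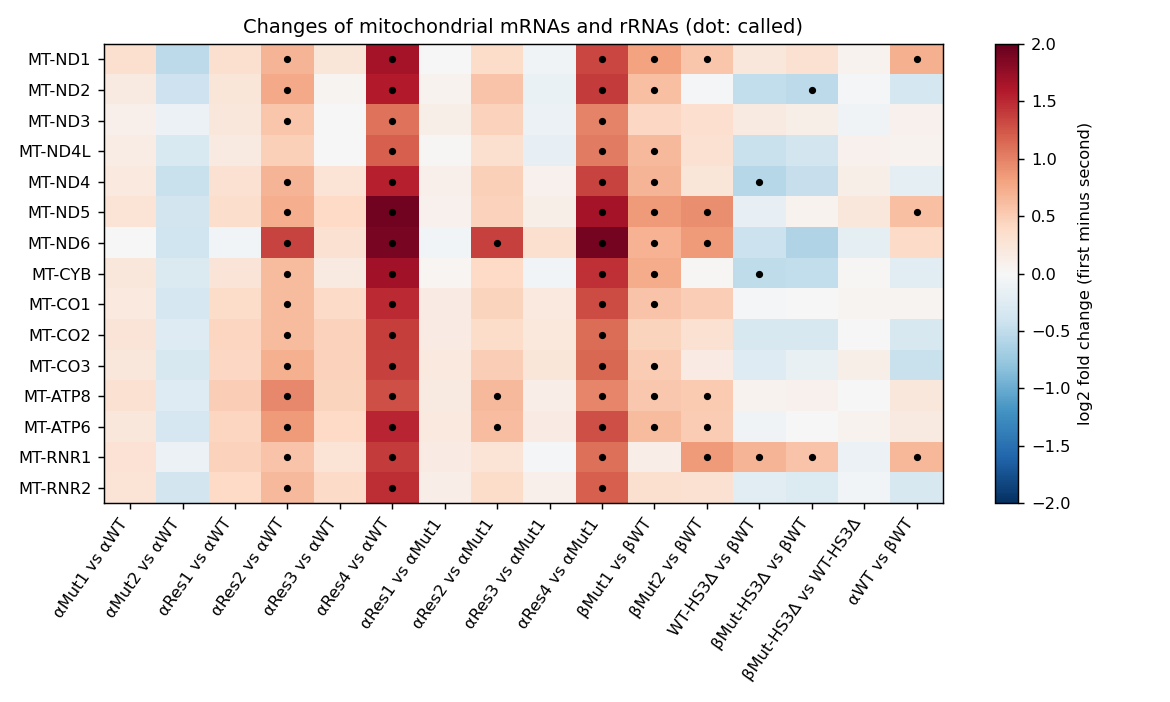
Log2 fold change (colour, first line minus second) of the 13 mRNAs and 2 rRNAs (rows) in the 16 comparisons (columns); a dot marks a called gene. The 2 αRes4 columns carry dots for all 15 genes, and MT-RNR1 carries dots in βMut2, WT-HS3Δ and βMut-HS3Δ against βWT.

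Nuclear genes for mitochondrial functions gave different counts against the unedited line and against the parent clone. Of 72 nuclear subunits of complexes I, III, IV and V, 6 were called higher and 6 lower than in αWT, where 23.3% of all genes were higher and 17.2% lower. By adjusted p alone, 33 of these subunits were higher and 9 lower, and their median log2 fold change was 0.23. Against αMut1, 19 of the 72 were called higher and 1 lower, with 18.5% of all genes higher and 14.04% lower, and the median was 0.29. Of 16 genes for mitochondrial DNA transcription and replication, 0 were higher and 6 lower than in αWT, but 2 were higher and 1 lower than in αMut1. Those lower than in αWT included TFAM, which packages mitochondrial DNA and activates its transcription (log2 fold change -0.69 ± 0.11, SE, adjusted p = 7.5e-07). Of 24 genes for mitochondrial RNA processing and stability, 0 were higher and 8 lower than in αWT, but 2 were higher and 1 lower than in αMut1. Those lower than in αWT included GRSF1, a protein of mitochondrial RNA granules (-0.74 ± 0.16, SE, adjusted p = 0.00012). Long RNAs that stay in the nucleus rose too, with 3 of 3 called higher than in αWT, including MALAT1 (1.02 ± 0.26, SE, adjusted p = 0.001) and NEAT1 (1.72 ± 0.32, SE, adjusted p = 1.6e-05). Their part in the mitochondrial difference was not tested.

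αRes2 had 12 of 13 mRNAs higher than αWT (18.7% of all genes called), with a median log2 fold change of 0.69. MT-ND6, which is encoded on the other strand than the remaining mRNAs, moved most, by 1.35 ± 0.29 (SE, adjusted p = 0.00026). It ranged from 46.8 to 158 CPM in αRes2 and from 24.1 to 67.1 in αWT, and the lines overlapped. The count of 12 rested in part on single libraries and sets. It fell to 5 without αRes2 replicate 3, and was 13 in replicate numbers 1 to 4 and 2 in numbers 5 to 8. Against αMut1, 3 mRNAs were higher (MT-ND6, MT-ATP8 and MT-ATP6, 8.96% of all genes called), and 1 without αRes2 replicate 3. The rule for pairing held for this comparison, with correlations of 0.12 to 0.26 in 7 pairs, and with the replicate block 3 were called again.

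The share of mitochondrial counts on light-strand genes (MT-ND6 and 8 tRNA genes) was 0.521% ± 0.181 (SD, n = 8) in αRes2 and 0.272% ± 0.0582 (SD, n = 7) in αMut1. It was the 1 of 64 share tests to pass (exact permutation test, two-sided, p = 0.00062, adjusted p = 0.0398). The libraries were selected for poly(A), which tRNAs lack and not all mitochondrial mRNAs carry. These counts, including those of MT-ND6, need therefore not measure light-strand RNA levels, and whether capture differed between lines was not tested. Within replicate numbers 1 to 4 and within 5 to 8 αRes2 was also higher, with p = 0.0286 and p = 0.0571 in exact permutation tests, the smallest these set sizes allow, and neither passed adjustment. MALAT1 was at 1149 to 1836 CPM in αRes2 replicates 1 to 4 and at 643 to 764 in replicates 5 to 8, and its part was not tested.

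αMut1 had 0 of 13 mRNAs called against αWT (22.8% of all genes), with none at an unadjusted p below 0.05. The replicate sets went opposite ways. In numbers 1 to 4, 6 mRNAs were called and the median log2 fold change was 0.58, and in numbers 5 to 8, 2 were called and the median was -0.31. αMut2 had 0 called (16.1% of all genes), 1 at an unadjusted p below 0.05 and a median of -0.33, with MT-ND1 at -0.53 ± 0.26 (SE, adjusted p = 0.13).

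αRes1 had 0 of 13 called against αWT (20.4% of all genes), with 5 at an unadjusted p below 0.05, and 0 against αMut1 (2.96%), with 0 at that level. DESeq2 also called 0 in these comparisons of αMut1, αMut2 and αRes1. Against αMut1 the median was -0.24 in replicate numbers 1 to 4 with 1 mRNA called, and 0.68 in numbers 5 to 8 with 11 called. Both values depend on set labels that are in doubt for these lines. Without αWT replicate 8, 5 mRNAs were called in αRes1 against αWT.

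The nuclear copy MTND1P23 divided the same lines by set. It had 32 to 114 counts in αRes1 replicates 1 to 4 and 19 to 54 in αMut1 replicates 5 to 7. The other set of each line had at most 4 counts. In this copy αMut1 replicates 5 to 7 thus resembled αRes1 replicates 1 to 4, and αMut1 replicates 1 to 4 resembled αRes1 replicates 5 to 8, and whether the set labels were exchanged was not tested. αRes4 had 16, 16, 7 and 1 counts, and no other library exceeded 5. In the 7 libraries with the highest counts, the copy made up 0.152% to 0.389% of the counts on MT-ND1 and the copy together. Other copies were counted far more, MTATP6P1 with 2049 to 13255 and MTND2P28 with 671 to 6114 counts per library. In αWT replicate 1, MTATP6P1 had 4029 counts beside 24913 on MT-ATP6, and MTND2P28 had 2086 beside 22783 on MT-ND2. The part of these copies in the levels of both genes was not tested.

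**Figure D3:**
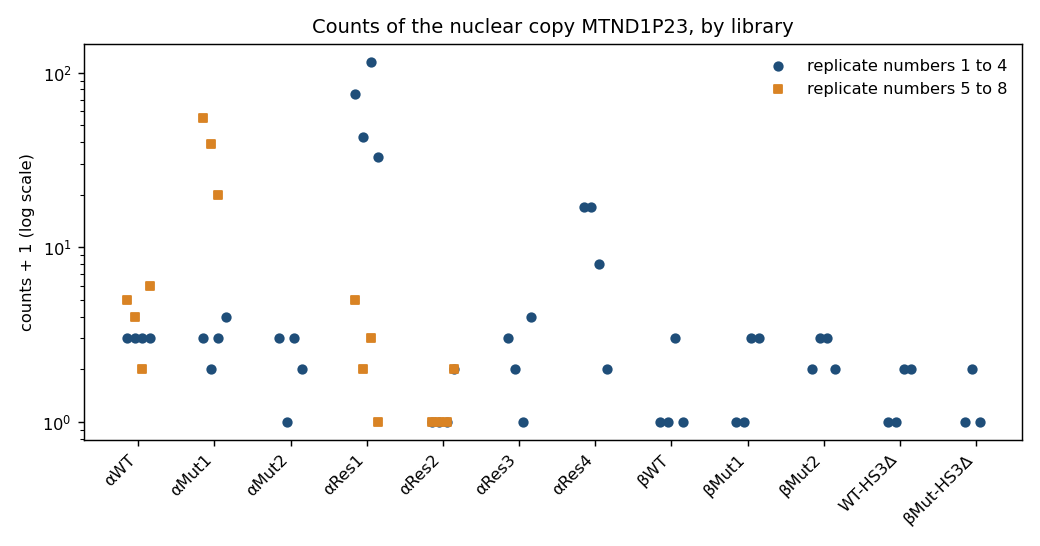
Counts of the nuclear copy MTND1P23 plus 1 (log axis) in each library, by line; circles are replicate numbers 1 to 4 and squares 5 to 8. αMut1 squares (19 to 54 counts) and αRes1 circles (32 to 114 counts) stand above the other set of the same line.

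In the β series, βMut1 had 11 of 13 mRNAs higher than βWT (20.3% of all genes called), with a median log2 fold change of 0.63. MT-ND5 stood at 411, 699, 892 and 844 CPM in βMut1 and at 379, 344, 472 and 381 in βWT. Replicates 2 to 4 of βMut1 were above all βWT libraries and replicate 1 was within their range. Its log2 fold change was 0.85 ± 0.23 (SE, adjusted p = 0.0076). The remaining 2 mRNAs, MT-CO2 (0.45) and MT-ND3 (0.41), passed the adjusted p but not the fold threshold. Neither rRNA was called, with MT-RNR1 at 0.14 ± 0.17 and MT-RNR2 at 0.32 ± 0.15 (SE).

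Leaving out βMut1 replicate 3 reduced the count from 11 to 6. MALAT1 and NEAT1 were also higher in βMut1, by 1.41 ± 0.30 and 1.29 ± 0.27 (SE). Within βMut1, MALAT1 was lowest in replicate 1 (196 CPM against 396 to 607), the library of this line with the lowest mitochondrial share. The part of these nuclear RNAs in the mitochondrial difference was not tested. Of 72 nuclear subunits of complexes I, III, IV and V, 9 were higher and 0 lower, with 13.01% of all genes called higher and 7.28% lower, so the count of higher subunits was near the share over all genes.

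βMut2 had 5 of 13 mRNAs higher than βWT (28.7% of all genes called): MT-ND1, MT-ND5, MT-ND6, MT-ATP8 and MT-ATP6. MT-ND5 changed most, by 0.93 ± 0.23 (SE, adjusted p = 0.0027), whereas MT-CYB stood at 0.02 ± 0.18 and MT-ND2 at -0.04 ± 0.18 (SE). The count fell to 2 without βWT replicate 2 and without βMut2 replicate 2, 3 or 4. Of all genes 15.0% were called higher and 13.7% lower. Among nuclear genes, 44 of 72 subunits of complexes I, III, IV and V were higher and 0 lower, and 47 of 77 mitochondrial ribosomal protein genes were higher and 0 lower. NDUFA2, a complex I subunit, rose by 1.04 ± 0.19 (SE, adjusted p = 0.00016) and MRPL46, of the large ribosomal subunit, by 1.18 ± 0.17 (SE, adjusted p = 1.4e-05).

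MT-RNR1 differed between β lines more than MT-RNR2. It stood at 210.2, 347, 358 and 291 CPM in βMut2 and at 148, 161, 185 and 171 in βWT, with no overlap, and its log2 fold change was 0.86 ± 0.17 (SE, adjusted p = 0.00052). In WT-HS3Δ it was 0.68 ± 0.17 (SE, adjusted p = 0.0018) and in βMut-HS3Δ 0.57 ± 0.19 (SE, adjusted p = 0.012). MT-RNR2 was called in none of these comparisons.

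The ratio of both rRNAs, looked at after the values were seen and given without a test, was 9.29 ± 0.654 counts of MT-RNR1 per 100 of MT-RNR2 in βWT (SD, n = 4) and 8.11 ± 0.694 in βMut1 (SD, n = 4). It was 13.6 ± 0.863 in βMut2 (SD, n = 4), 17.5 ± 0.875 in WT-HS3Δ (SD, n = 4) and 16.7 ± 0.194 in βMut-HS3Δ (SD, n = 3). βMut-HS3Δ was made from βMut1, and their ratios did not overlap. In the α lines the means ran from 17.0 to 21.8.

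**Figure D4:**
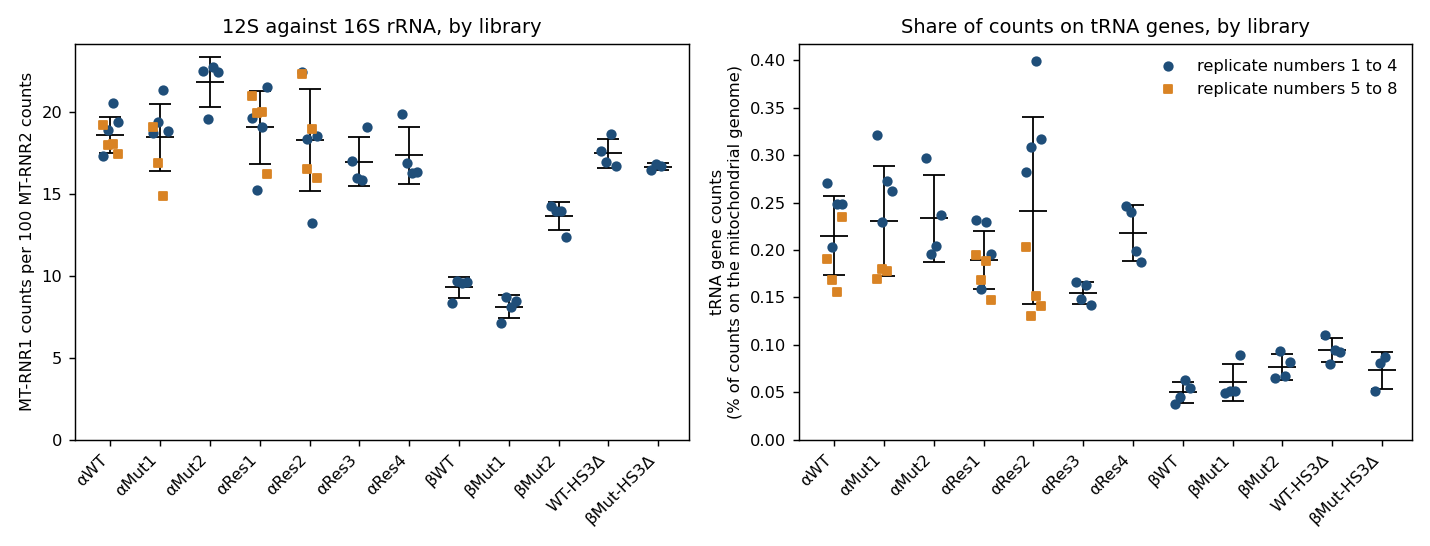
Left, MT-RNR1 counts per 100 MT-RNR2 counts, and right, tRNA gene counts as % of mitochondrial counts, in each library by line; bars are the mean and SD, circles replicate numbers 1 to 4 and squares 5 to 8. βWT and βMut1 have the lowest rRNA ratios (9.29 and 8.11), and all β lines lie below the α lines in tRNA share.

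With HS3 deleted few mRNAs were called, while the mitochondrial share of all libraries lay below βWT (above). In WT-HS3Δ, 2 of 13 were lower than in βWT (50.2% of all genes called): MT-ND4, at -0.57 ± 0.18 (SE, adjusted p = 0.0083), and MT-CYB, at -0.51 ± 0.18 (SE, adjusted p = 0.018). The count ranged from 1 to 4 when single libraries were left out, and was 4 without WT-HS3Δ replicate 4 and 1 without βWT replicate 3 or WT-HS3Δ replicate 1 or 2. Of nuclear genes, 36 of 77 mitochondrial ribosomal protein genes were higher and 2 lower (22.8% of all genes higher and 27.5% lower), and POLRMT, the mitochondrial RNA polymerase, was higher by 0.98 ± 0.14 (SE, adjusted p = 3.9e-06).

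In βMut-HS3Δ, 1 of 13 was lower than in βWT (48.1% of all genes called), MT-ND2 at -0.52 ± 0.20 (SE, adjusted p = 0.026), and this count ranged from 0 to 3 when single libraries were left out (0 without βWT replicate 3 or βMut-HS3Δ replicate 1 or 3, 3 without βWT replicate 2 or βMut-HS3Δ replicate 2). Against WT-HS3Δ, 0 of 13 were called (16.3% of all genes), with 0 at an unadjusted p below 0.05 and a median of 0.05.

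Whether the G4 mutation acted differently with and without HS3 was tested as an interaction, a contrast added after the data were seen. Of the 13 mRNAs 0 were called (12.1% of all genes), although 10 had an unadjusted p below 0.05 and the median difference was -0.56 on the log2 scale. The tRNA gene MT-TM was called, at -2.27 ± 0.67 (SE, adjusted p = 0.024), with at most 0.795 CPM in any β library.

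Unedited cells of both series held the same mean share of mitochondrial counts, 1.12% in αWT and 1.12% in βWT. Without αWT replicate 8 (1.94%), the difference of αWT from βWT was -0.116 percentage points. Single genes differed. MT-ND1 (0.72 ± 0.20, SE, adjusted p = 0.0065) and MT-ND5 (0.60 ± 0.21, SE, adjusted p = 0.018) were the 2 mRNAs called higher in αWT (48.1% of all genes called). Scaled over these 2 lines, MT-ND1 ran from 511 to 1208 CPM in αWT and from 349 to 425 in βWT, without overlap. MT-ND5 ran from 479 to 1178 in αWT and from 368 to 507 in βWT, and the lines overlapped. In both genes αWT replicate 8 was the highest. Of 10 tRNA genes tested, 8 were higher in αWT (25.0% of all genes), among them the valine tRNA MT-TV by 3.59 ± 0.40 (SE, adjusted p = 2.2e-06) and MT-TL1 by 1.67 ± 0.27 (SE, adjusted p = 9.1e-05). MT-RNR1 was higher by 0.66 ± 0.17 (SE, adjusted p = 0.0027).

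tRNA genes made up 0.215% ± 0.0417 of mitochondrial counts in αWT (SD, n = 8) and 0.05% ± 0.011 in βWT (SD, n = 4), and no library of either line overlapped the other (exact permutation test, two-sided, p = 0.0040, adjusted p = 0.0746). MALAT1, NEAT1 and KCNQ1OT1 were higher in αWT as well (3 of 3), and nuclear subunits of complexes I, III, IV and V were lower in 25 of 72 and higher in 1, with 23.1% of all genes lower and 25.0% higher. Series and unedited line cannot be told apart.

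Within the α series tRNA genes followed the mRNAs only in part. αMut1 had 1 of 12 called higher than αWT, the tryptophan tRNA MT-TW (0.83 ± 0.30, SE, adjusted p = 0.026), with 15.4% of all genes called higher, so this count was not above that share. αRes2 had 6 of 12 higher, with 12.0% of all genes higher. Its sets differed in the share of mitochondrial counts on tRNA genes. This share was 0.327% ± 0.0506 in αRes2 numbers 1 to 4, against 0.243% ± 0.0284 in αWT (SD, n = 4 each). In numbers 5 to 8 it was 0.157% ± 0.0325 in αRes2 and 0.187% ± 0.0349 in αWT (SD, n = 4 each). MT-TV stood at 28.9 CPM in αRes2 replicate 3, the shallowest library, and at 2.67 to 11.1 in the others of the line. Of the 22 tRNA genes, 10 were too low to test in α lines and 15 in β lines. MT-TN was at 0 in 47 of 62 libraries. Poly(A) selection retains few mature tRNAs, so these counts are no measure of mature tRNA levels.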

How the data were processed

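Raw counts per gene were deposited. The authors sequenced poly(A) libraries (stranded kit) as 51-base pairs, trimmed reads with cutadapt, used bwa mem for alignment to hg38 and SAMtools 1.15.1 for sorting, removed duplicates with Picard, and counted with featureCounts. The strand, overlap and multi-mapping settings are not given in the sources used here. Deduplication can lower counts of very abundant RNAs in deep libraries. Of the gene IDs, 62625 matched GENCODE 44, used for names and positions, and 71 did not.

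Counts were tested with edgeR 4.0.16 in R 4.3.3, with TMM scaling, genes whose mean count reached 10, the quasi-likelihood test and Benjamini-Hochberg adjustment over all genes tested, 18247 for α lines, 17535 for β lines and 18196 for αWT against βWT. DESeq2 1.42.0 was an alternative. Library shares were tested by exact permutation, two-sided with the smaller tail doubled and adjusted over 64 tests. CPM values were scaled by TMM, except those of markers and MALAT1. The procedure was tested on simulated data. All 37 members are described, and up to 3 called nuclear genes per list and direction were eligible to be named, by size of change. Members, lists and rules were chosen with earlier results of these data known. No pair of libraries looked like a duplicate (lowest chi-square per gene 1.79). Same-numbered libraries met the pairing rule only for αRes2 against αMut1.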

Additional observations from a re-analysis of the deposited data

Results flagged for a closer look

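Over 55 groups and measures looked at for a library far from the others of its line, 4 were found, and chance gives about 1 in 20. The mitochondrial share of αWT replicate 8 was 1.94%, the highest of 8, and that of αRes2 replicate 3 was 3.48%, the highest of 8 and in the shallowest library. The tRNA share of mitochondrial counts in βMut1 replicate 4 was 0.0891%, the highest of 4. MTND1P23 had 2 counts in βWT replicate 3 and 0 in the other 3 libraries of that line, which is within counting error.

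The change of MT-TM with the HS2 G4 mutation differed with HS3 deleted against HS3 intact, by -2.27 on the log2 scale (edgeR, adjusted p = 0.024). Counts of this tRNA gene were low throughout the β series.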

How the results depend on the processing

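Counts of called mitochondrial mRNAs changed as follows. With the replicate block, αRes1 against αWT had 1 called, and the block changed no other call of this kind by over 1.5 times, with 13 called again in αRes4 against αWT and 10 in βMut1 against βWT. The pairing rule was met only for αRes2 against αMut1, where the median correlation of same-numbered libraries was 0.21 and 0 of 7 matched their own number best. In βMut1 against βWT these correlations ran from 0.08 to 0.55 (median 0.31), and 3 of 4 matched their own number best. In βMut-HS3Δ against WT-HS3Δ the median was 0.29, with 3 of 3, so libraries of β lines may be paired although the rule was not met. WT-HS3Δ against βWT had 1 with RLE size factors, 1 with DESeq2 and 0 with no filter on low counts. βMut-HS3Δ against βWT had 2 with DESeq2 and 3 with only both lines in the fit, and αRes2 against αMut1 had 1 with only both lines. In replicate numbers 1 to 4, αMut1 against αWT had 6, αRes3 against αWT 1, αRes1 against αMut1 1 and αRes2 against αMut1 1. In numbers 5 to 8, αMut1 against αWT had 2, αRes1 against αWT 4, αRes2 against αWT 2, αRes1 against αMut1 11 and αRes2 against αMut1 10.

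When single libraries were left out, the counts ran from 0 to 1 in αMut2 and from 0 to 4 in αRes3 against αWT, from 2 to 6 in βMut2, from 6 to 12 in βMut1, from 1 to 4 in WT-HS3Δ and from 0 to 3 in βMut-HS3Δ against βWT, and from 1 to 3 in αWT against βWT. Without αWT replicate 8, chosen after the data were seen, αMut1 had 1, αRes1 5 and αRes3 4 called against αWT. Without αRes2 replicate 3, likewise, αRes2 had 5 against αWT and 1 against αMut1. The cause was not tested.

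In replicate numbers 5 to 8, 12 of 13 mRNAs in αMut1 against αWT had the other sign than over all libraries, as had 2 in αRes1 against αMut1 and 1 in αRes1 against αWT. In numbers 1 to 4 this held for 11 in αRes1 against αMut1, 7 in αRes3 against αMut1 and 1 in αMut1 against αWT. Of changes of sign over all alternatives, 2 were also called: MT-ND2 in αMut1 against αWT (-0.52) and MT-ND6 in αRes1 against αMut1 (1.03), both in numbers 5 to 8. Mitochondrial shares passed only under choices made after the data were seen. Without αWT replicate 8 they passed in αRes1 (0.411 percentage points), αRes2, αRes3 and αRes4 (2.54). Over all single libraries left out, the difference from αWT ran from 0.428 to 0.785 in αRes2, from 0.185 to 0.419 in αRes3 and from 1.86 to 2.96 in αRes4. With a p by absolute difference instead of the doubled tail, αRes4 against αWT passed at the same difference of 2.42 percentage points (adjusted p = 0.0431). A replicate block with 4 pairs cannot give p below 0.125.

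Rare tRNA genes are limited by depth, and 10 of 22 in the α series and 15 of 22 in the β series were not tested.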
